A study of Mus musculus with 18 samples.

Results

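Interferon-stimulated genes were followed in translating ribosome affinity purification (TRAP) RNAseq of mouse brain. The list holds 46 genes of the 36172 in the deposited matrix. Of these, 44 were found by gene symbol and 2, Phf11b and Phf11d, by RefSeq gene ID, because the matrix lists them under older symbols. Both were listed at 0 in every library and could not be tested, and the other 44 members were among the 14803 genes that passed the low-count filter. All mice carried Cx3cr1-cre/ERT2 and NuTRAP alleles, so that tamoxifen switched on an EGFP-tagged ribosomal protein in Cx3cr1-expressing cells. Tamoxifen was injected daily for 5 days at about 3 months of age, and 3 to 4 weeks later the mice received 5 mg/kg lipopolysaccharide (LPS), bacterial endotoxin, or phosphate-buffered saline (PBS) intraperitoneally. A hemisected brain was collected from each mouse 24 h after the injection, some of each lysate was kept as input, and the positive fraction was made by capturing tagged ribosomes with antibody to GFP. The groups are called Input PBS and Positive PBS (4 libraries each), Input LPS (4) and Positive LPS (5), each library from a separate animal of its group and the same animals giving both fractions. The Cx3cr1 promoter is active in microglia and also in other myeloid cells, such as border macrophages and monocytes, and the input holds RNA of all cells of the tissue, microglia included. Of the 5 LPS animals 4 were female, and of the 4 PBS animals 2 were. Values per library are given below in the order of animals 268, 272, 273 and 506 for PBS and 266, 267, 270, 271 and 507 for LPS, where animal 271 has a positive library only.

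Interferon-stimulated genes are the transcripts that cells switch on after type I interferons bind the receptor IFNAR on their surface. The receptor activates the kinases JAK1 and TYK2, which phosphorylate transcription factors such as STAT2. With IRF9 it enters a complex that binds the interferon-stimulated response element (ISRE) in gene promoters. The products block steps of viral replication, tag proteins, and feed back on interferon signalling, and a set of them is part of the known microglial response to inflammation.

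RefSeq promoter windows (GRCm38.p6, from 250 bases before to 50 after each annotated start) were found for 36 members, in 42 windows. None was found for Ifi204, Ifi27l2a, Mx1, Mx2, Oas1b, Oas2, Parp9, Parp14, Rtp4 and Usp18. The ISRE was searched on both strands as GAAA, 2 bases of any kind and GAAA, and 16 of the 36 members with a window (44.4%) held it, against 3.99% of all 27025 genes with windows. Members were not chosen by their promoters, a match is a description of letters, and overlapping matches run together below. Shown 5′ to 3′ in gene direction, with ISRE matches in capitals, is the window of Isg15, with 3 overlapping matches. Those of Ifitm3 and Rsad2, with large LPS responses in both fractions, follow. Also shown are Slfn5 and Lgals3bp, the 2 members whose LPS responses were called different between fractions when libraries were not paired by animal. A fit with the animal as a replicate block added other members, Ifitm3 among them, as given below. No ISRE match was found in the Lgals3bp window.
Isg15, chr4:156200769-156201068, minus strand: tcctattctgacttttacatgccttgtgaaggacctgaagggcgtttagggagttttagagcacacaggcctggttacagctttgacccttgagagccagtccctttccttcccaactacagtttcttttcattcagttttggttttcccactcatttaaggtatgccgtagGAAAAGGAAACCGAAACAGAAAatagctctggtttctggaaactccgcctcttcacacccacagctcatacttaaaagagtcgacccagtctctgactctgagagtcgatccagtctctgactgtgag
Ifitm3, chr7:141010695-141010994, minus strand: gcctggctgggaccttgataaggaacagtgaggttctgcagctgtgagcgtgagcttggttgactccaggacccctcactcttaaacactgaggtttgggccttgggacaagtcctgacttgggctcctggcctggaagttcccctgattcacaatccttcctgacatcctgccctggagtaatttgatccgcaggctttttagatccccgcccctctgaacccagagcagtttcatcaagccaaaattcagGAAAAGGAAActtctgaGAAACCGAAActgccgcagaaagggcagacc
Rsad2, chr12:26456403-26456702, minus strand: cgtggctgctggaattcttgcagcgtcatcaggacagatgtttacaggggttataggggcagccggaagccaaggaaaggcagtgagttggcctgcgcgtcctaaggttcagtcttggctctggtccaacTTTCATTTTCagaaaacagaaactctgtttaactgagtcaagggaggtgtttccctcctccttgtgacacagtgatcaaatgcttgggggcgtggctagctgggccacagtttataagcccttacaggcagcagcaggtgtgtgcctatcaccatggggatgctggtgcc
Slfn5, chr11:82951852-82952151, plus strand: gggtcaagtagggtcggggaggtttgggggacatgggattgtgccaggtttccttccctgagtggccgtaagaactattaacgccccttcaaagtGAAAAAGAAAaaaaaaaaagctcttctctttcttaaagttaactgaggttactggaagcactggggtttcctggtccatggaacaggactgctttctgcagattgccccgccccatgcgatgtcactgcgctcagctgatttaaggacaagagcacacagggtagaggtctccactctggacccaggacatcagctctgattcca
Lgals3bp, chr11:118401910-118402209, minus strand: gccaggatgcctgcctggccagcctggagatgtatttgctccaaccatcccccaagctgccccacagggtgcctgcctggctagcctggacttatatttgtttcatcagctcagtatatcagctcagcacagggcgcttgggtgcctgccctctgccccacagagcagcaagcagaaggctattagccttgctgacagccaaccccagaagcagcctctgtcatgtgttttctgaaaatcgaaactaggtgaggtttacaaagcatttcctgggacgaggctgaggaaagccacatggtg

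The 17 libraries used held 22968939 to 35123345 counts, while the input library of animal 271 held 1252 counts and none of a member, and was left out. Markers of microglia stood higher in the positive fraction than in input for 6 of 6 genes in both treatments (median log2 difference 4.15 in PBS animals). Oligodendrocyte markers stood lower for 4 of 4 (median -2.27). In PBS animals, border macrophage (4 of 4, median 3.96), monocyte (3 of 3, 1.67) and endothelial markers (5 of 6, 1.455) were also higher in the positive fraction. So were 2 of 5 neuron markers. Lower there were 3 of 4 neutrophil and 2 of 4 astrocyte markers, and 0 of 4 pericyte markers were called. With LPS, 4 of the 6 microglia markers fell in the positive fraction and 2 fell in input. The 4 neutrophil markers tested of 6 (S100a8, S100a9, Ngp and Retnlg) rose in both fractions. The summed neutrophil list, in which Ly6g was at 0 in every library, lay at 148 to 399 normalised counts in Input PBS, 451 to 1214 in Input LPS, 26.7 to 122 in Positive PBS and 302 to 818 in Positive LPS. Of 6 endothelial markers, 1 rose and 2 fell in the positive fraction, and 2 rose and 1 fell in input. Of the other lists, LPS lowered 1 of 3 monocyte, 3 of 4 border macrophage, 2 of 4 pericyte, 1 of 4 astrocyte, 2 of 4 oligodendrocyte and 1 of 5 neuron markers in the positive fraction. In input the same lists had 0, 0, 2, 1, 4 and 0 lowered markers, and 1 astrocyte marker rose. The lymphocyte markers were too low to be tested. The part of these cell types in the results below was not tested, and in such bulk samples fewer cells of a type and less RNA per cell cannot be told apart.

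LPS raised the interferon-stimulated genes in both fractions. Together the members took 0.0241% to 0.0266% of the counts in Input PBS and 0.0544% to 0.0744% in Input LPS. In the positive fraction they took 0.0571% to 0.0633% with PBS and 0.149% to 0.192% with LPS, and no LPS library overlapped the PBS libraries of its fraction. Members with many counts weigh most in these sums. Lgals3bp had the most in Positive LPS, with a mean of 14210 normalised counts against 2137 in Positive PBS. In the positive fraction 41 of the 44 tested members rose (93.2%, against 19.0% of all genes), with a median log2 fold change of 1.27, beside 0.01 over all genes. In input 35 rose (79.5%, against 7.16% of all genes), with a median of 1.58, beside 0.00 over all genes. Calls rest on edgeR's quasi-likelihood test, with a p under 0.05 after Benjamini-Hochberg adjustment over all genes and a level more than 25% above the lower group, and all adjusted p-values below are of this test unless another is named. No member fell in the positive fraction or in input (0 and 0, against 14.9% and 5.26% of all genes). At an unadjusted p under 0.05, 0 and 1 member were lower, and DESeq2 and limma also called 0 in both. The 2 fractions share their animals, so these counts are not independent of each other. Rises over 2-fold were fitted for 28 members in input (63.6%, against 3.50% of all genes) and for 30 in the positive fraction (68.2%, against 5.47%). Every LPS library lay above every PBS library for 36 members in input (81.8%, against 12.6% of all genes) and for 39 in the positive fraction (88.6%, against 17.1%).

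**Figure D1:**
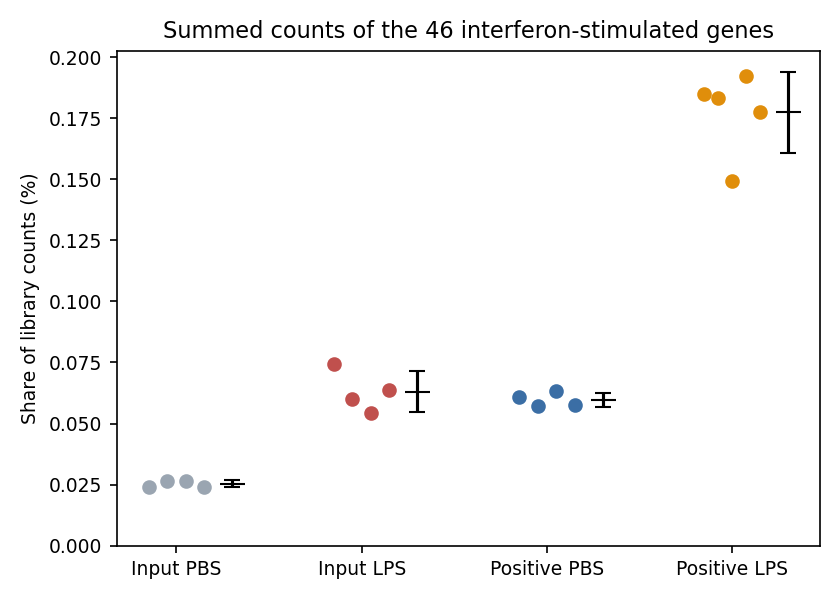
Share of each library's counts (%, vertical axis) taken by the 46 members in the 4 groups, 1 point per library, with the mean and SD as a bar beside the points. The LPS libraries sit above the PBS libraries in both fractions, from 0.149% to 0.192% against 0.0571% to 0.0633% in the positive fraction.

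**Figure D2:**
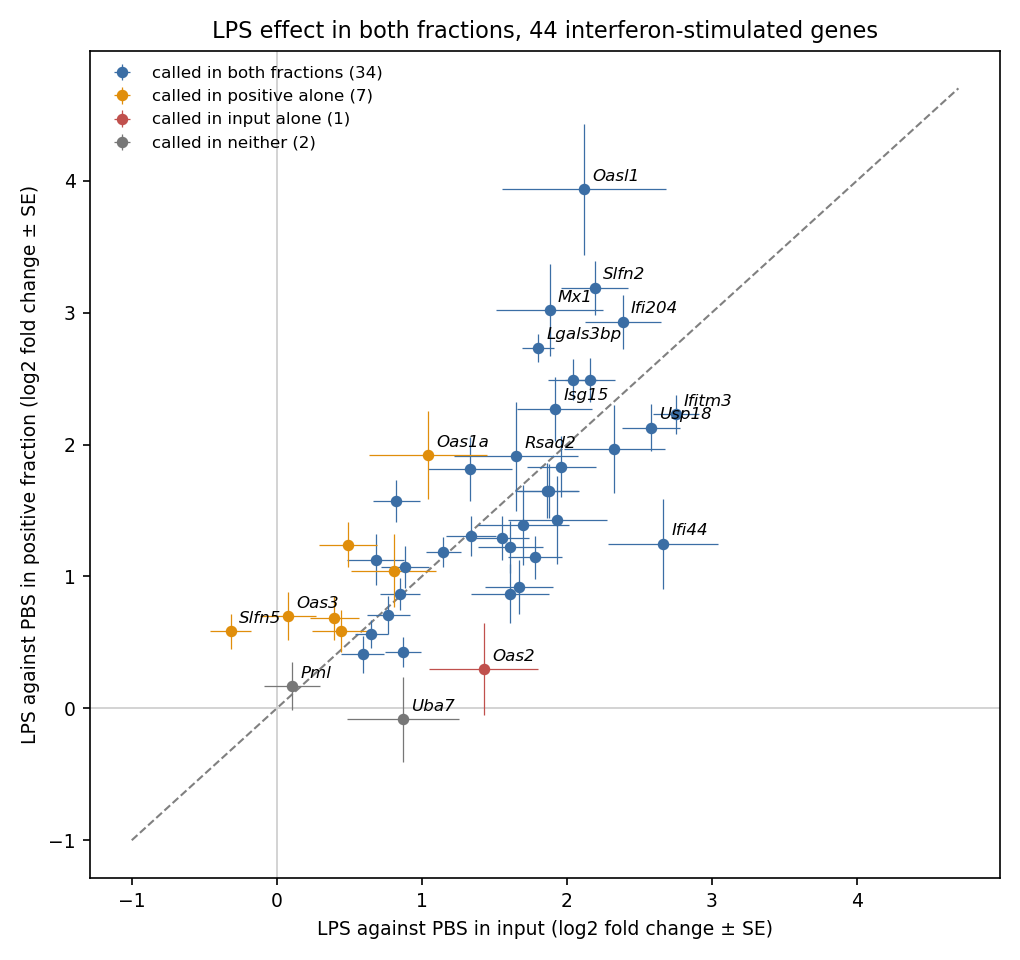
LPS log2 fold change (± SE) of each of the 44 tested members in input (horizontal axis) and in the positive fraction (vertical axis), coloured by call, with the line of equal change dashed. Points scatter on both sides of the line, with Oasl1 farthest above it and Ifi44 farthest below it.

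Among the members that conjugate the ubiquitin-like protein ISG15 to other proteins, 4 of 5 rose in the positive fraction and 3 in input. Isg15 encodes the modifier itself. Isg15 held 67.4, 65.0, 55.1 and 46.7 normalised counts in Input PBS and 337, 194, 135 and 219.8 in Input LPS. Isg15 in the positive fraction held 98.0, 139.9, 178 and 111 with PBS and 606, 705, 453, 772 and 638 with LPS. Every LPS library stood above the PBS libraries of its fraction, and the log2 fold changes were 1.92 ± 0.26 (SE) in input and 2.27 ± 0.24 in the positive fraction (adjusted p = 5.01e-05 and 8.68e-07). Usp18 encodes the protease that removes ISG15 and also damps signalling at the interferon receptor. Usp18 held 16.4, 22.7, 20.9 and 24.8 normalised counts in Input PBS and 161, 113, 107 and 128 in Input LPS. Usp18 in the positive fraction held 93.7, 69.5, 87.5 and 80.2 with PBS and 439.9, 367, 268, 341 and 393 with LPS. The groups did not overlap within either fraction, and Usp18 rose 5.98-fold in input and 4.37-fold in the positive fraction (adjusted p = 1.51e-07 and 4.46e-08). Uba7 encodes the activating enzyme of the pathway. Uba7 held 34.6, 47.5, 62.7 and 50.5 normalised counts in Input PBS and 114, 87.3, 76.3 and 79.3 in Input LPS. Uba7 in the positive fraction held 413, 470.2, 334 and 338 with PBS and 509.7, 455, 125, 184 and 566 with LPS. In Positive LPS, the libraries of animals 270 and 271 lay below all Positive PBS libraries and the other 3 lay near or above the highest of them. The log2 fold changes were 0.87 ± 0.38 in input (adjusted p = 0.145) and -0.08 ± 0.32 in the positive fraction (adjusted p = 0.857), and neither was called. Every Input LPS library of Uba7 nonetheless lay above every Input PBS library. Its input change was called when only the input libraries were fitted (0.86, adjusted p = 0.0191). Ube2l6, the conjugating enzyme, rose in both fractions (log2 fold changes 0.41 positive and 0.59 input), and the positive call was lost without Positive PBS 268 (0.34, adjusted p = 0.0851), Positive PBS 272 (0.38, adjusted p = 0.0719) or Positive LPS 507 (0.36, adjusted p = 0.0594). Herc6, the ligase, rose in the positive fraction (0.68) and had a log2 fold change of 0.40 in input (adjusted p = 0.133).

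The oligoadenylate synthetase family makes the second messenger that activates RNase L upon double-stranded RNA, and Oasl1 and Oasl2 are its synthetase-like relatives. Of the 6 members, 5 rose in the positive fraction and 4 in input. Oasl1 held 5.47, 9.29, 11.4 and 0 normalised counts in Input PBS and 27.1, 17.5, 47.6 and 21.9 in Input LPS. Oasl1 in the positive fraction held 3.27, 11.4, 20.9 and 19.1 with PBS and 149.5, 168, 211, 332 and 166 with LPS. Oasl1 counts were low in PBS animals, with 1 library at 0, and the LPS libraries stood above the PBS libraries of their fraction. It had the largest positive-fraction change of the 44 members (3.93 ± 0.50, adjusted p = 6.32e-06), while the input change of 2.12 ± 0.57 (adjusted p = 0.0169) was no longer called without Input LPS 270 (1.75, adjusted p = 0.0674). Oasl2 held 107, 165, 152 and 120.0 normalised counts in Input PBS and 957, 626, 324 and 821 in Input LPS. Oasl2 in the positive fraction held 184, 292, 308 and 205 with PBS and 1258, 1258, 452, 631 and 1239 with LPS. LPS and PBS libraries of Oasl2 did not overlap in either fraction, and it rose 5.02-fold in input and 3.91-fold in the positive fraction (adjusted p = 0.000148 and 0.000126). Oas2 held 14.6, 23.7, 19.9 and 18.1 normalised counts in Input PBS and 50.7, 54.2, 23.8 and 76.3 in Input LPS. Oas2 in the positive fraction held 46.8, 21.9, 23.5 and 54.8 with PBS and 42.9, 34.2, 27.8, 55.2 and 65.4 with LPS. Oas2 was the 1 member called in input and not in the positive fraction, where its groups overlapped. Its log2 fold changes were 1.43 ± 0.38 in input (adjusted p = 0.016) and 0.30 ± 0.35 in the positive fraction (adjusted p = 0.519). The input call was lost without Input PBS 268 (1.31, adjusted p = 0.0517) or Input LPS 507 (1.16, adjusted p = 0.0632).

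Oas3 held 51.0, 57.8, 38.9 and 61.0 normalised counts in Input PBS and 49.0, 57.9, 55.8 and 57.4 in Input LPS. Oas3 in the positive fraction held 56.6, 53.3, 39.2 and 52.2 with PBS and 77.2, 83.9, 65.8, 88.4 and 94.5 with LPS. The input groups of Oas3 overlapped and the positive groups did not. Its log2 fold change was 0.08 ± 0.19 in input (adjusted p = 0.833) and 0.70 ± 0.18 in the positive fraction (adjusted p = 0.00543). Oas1a rose in the positive fraction (1.92) with an input log2 fold change of 1.04 (adjusted p = 0.0974), which was called without Positive LPS 270 (1.04, adjusted p = 0.0485). Oas1b rose in both (1.39 positive, 1.70 input). The matrix lists paralogs for most families here, and reads shared between near-identical copies (Oas1a and Oas1b, Ifit, Ifitm and Slfn genes) may be split uncertainly between them.

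The dynamin-like GTPases Mx1 and Mx2, which trap viral components, both rose in both fractions. Mx1 held 8.20, 17.5, 11.4 and 11.4 normalised counts in Input PBS and 49.8, 36.8, 60.8 and 31.7 in Input LPS. Mx1 in the positive fraction held 19.6, 25.7, 15.7 and 12.7 with PBS and 118, 120.2, 187, 253 and 84.5 with LPS. No LPS library of Mx1 overlapped the PBS libraries of its fraction, and it rose 3.68-fold in input and 8.11-fold in the positive fraction (adjusted p = 0.0019 and 2.17e-06). Mx2 rose by log2 fold changes of 1.93 in input and 1.43 in the positive fraction. Ifit1, Ifit2 and Ifit3, which bind foreign RNA ends and translation factors, also rose in both fractions, with log2 fold changes of 0.71 to 1.83 in the positive fraction and 0.77 to 1.96 in input. Rsad2 encodes viperin, which makes a chain-terminating nucleotide from CTP. Rsad2 held 84.8, 65.0, 72.2 and 49.5 normalised counts in Input PBS and 203, 119.5, 388 and 144 in Input LPS. Rsad2 in the positive fraction held 76.2, 104, 133 and 58.6 with PBS and 220.5, 171, 430.3, 684 and 241 with LPS. The Positive LPS libraries of animals 270 and 271 and the Input LPS library of animal 270 were the highest of their groups for Rsad2, and no groups overlapped within a fraction. Its log2 fold changes were 1.65 ± 0.43 in input (adjusted p = 0.0138) and 1.91 ± 0.41 in the positive fraction (adjusted p = 0.00123), and the input call was lost without Input LPS 270 (1.19, adjusted p = 0.072). Cmpk2, a mitochondrial nucleotide kinase gene next to Rsad2 on chromosome 12, rose in both fractions (0.56 positive, 0.65 input).

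The membrane restriction proteins rose in 3 of 3 members in both fractions. Ifitm3, which blocks fusion of viruses with endosomes, had the largest input change of all members. Ifitm3 held 241, 348, 280.1 and 276 normalised counts in Input PBS and 2142, 1970.2, 1557 and 2025 in Input LPS. Ifitm3 in the positive fraction held 601, 764, 894 and 540.1 with PBS and 3584, 3534, 2761, 3539.8 and 3000.4 with LPS. All LPS libraries were well above the PBS libraries, and Ifitm3 rose 6.73-fold in input and 4.69-fold in the positive fraction (adjusted p = 3.64e-09 and 3.12e-09). Bst2 encodes tetherin, which holds budding virions at the cell surface. Bst2 held 88.4, 212, 146 and 108 normalised counts in Input PBS and 451, 536, 334 and 366 in Input LPS. Bst2 in the positive fraction held 896, 983, 1042 and 1195 with PBS and 2447, 2666, 1658, 2688 and 2538 with LPS. The Positive LPS library of animal 270 was the lowest of its group yet above every Positive PBS library. Bst2 rose 3.05-fold in input and 2.33-fold in the positive fraction (adjusted p = 7.13e-05 and 9.32e-05). Ifitm2 rose by log2 fold changes of 2.16 in input and 2.49 in the positive fraction.

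Of the 6 RNA kinase, nuclease and helicase members, 4 rose in input and 6 in the positive fraction. The Schlafen gene Slfn2 encodes a protein known for keeping immune cells quiescent and protecting tRNA. Slfn2 held 67.4, 78.4, 54.1 and 57.1 normalised counts in Input PBS and 372, 308, 203 and 294 in Input LPS. Slfn2 in the positive fraction held 378, 359, 414 and 529.9 with PBS and 3994, 3380.1, 2924, 5637 and 3199.6 with LPS. Positive LPS libraries stood far above all others, at 9.12-fold the PBS level against 4.57-fold in input (adjusted p = 2.26e-09 and 3.26e-06). Slfn5 held 649.8, 823, 744 and 551 normalised counts in Input PBS and 549, 644, 475 and 552 in Input LPS. Slfn5 in the positive fraction held 999.7, 879, 1113 and 755 with PBS and 1175, 1516, 1448, 1549.5 and 1336 with LPS. For Slfn5 the input groups overlapped, with a log2 fold change of -0.32 ± 0.14 (adjusted p = 0.142), while in the positive fraction it rose without overlap (0.59 ± 0.13, adjusted p = 0.00177). Slfn8 held 40.1, 26.8, 44.6 and 41.0 normalised counts in Input PBS and 205, 85.5, 69.8 and 107 in Input LPS. Slfn8 in the positive fraction held 328, 270.3, 272 and 269 with PBS and 592, 530.4, 432, 533 and 513 with LPS. Neither fraction showed an overlap for Slfn8, and its log2 fold changes were 1.61 ± 0.27 in input and 0.87 ± 0.22 in the positive fraction (adjusted p = 0.000397 and 0.00483). Eif2ak2, the kinase PKR that halts translation upon double-stranded RNA, and Ddx60, a helicase, rose in both fractions (log2 fold changes in the positive fraction 1.19 and 1.65). Isg20, an exonuclease, rose in the positive fraction (1.04), and its input change of 0.81 (adjusted p = 0.0763) was called without Input PBS 272 (1.15, adjusted p = 0.0134).

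In the nucleus, Ifi204 encodes a DNA sensor of the PYHIN family. Ifi204 held 9.11, 33.0, 18.04 and 13.3 normalised counts in Input PBS and 105, 90.1, 70.6 and 115 in Input LPS. Ifi204 in the positive fraction held 228, 148, 185 and 204 with PBS and 1567, 1348, 1304, 1456 and 1616 with LPS. The groups were separate in both fractions, with a 5.22-fold rise in input and a 7.63-fold rise in the positive fraction (adjusted p = 5.13e-06 and 6.05e-09). Pml encodes the scaffold of PML nuclear bodies. Pml held 483, 392, 519.5 and 561 normalised counts in Input PBS and 663, 525, 374 and 546 in Input LPS. Pml in the positive fraction held 556, 510.1, 602 and 599 with PBS and 796, 734, 439, 469 and 750.4 with LPS. Its groups overlapped in both fractions, and the log2 fold changes of 0.11 ± 0.19 in input and 0.17 ± 0.18 in the positive fraction were not called (adjusted p = 0.764 and 0.482). Sp100, another component of these bodies, rose in the positive fraction (1.24), with 0.49 in input (adjusted p = 0.108), a change that was called without Input LPS 270 (0.66, adjusted p = 0.0189). The ADP-ribosylation members Parp9, Parp12 and Parp14 and the Parp9 partner Dtx3l, a ubiquitin ligase, rose in both fractions, by log2 fold changes of 0.43 to 1.29 in the positive fraction and 0.87 to 1.78 in input.

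Lgals3bp encodes a secreted glycoprotein that binds galectins (chr11:118392752-118401931, mm10, minus strand). Lgals3bp held 541, 655, 583 and 622 normalised counts in Input PBS and 2417, 2062, 1726 and 2166 in Input LPS. Lgals3bp in the positive fraction held 2081, 1962, 2178 and 2327 with PBS and 13499, 15145, 11945, 15958 and 14503 with LPS. Input LPS and Positive PBS libraries covered a like range, and the Positive LPS libraries stood above every other library. The rise was 3.49-fold in input and 6.65-fold in the positive fraction (adjusted p = 4.81e-09 and 4.39e-12). Lgals9, a galectin, rose 1.80-fold and 1.82-fold.

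Of the 8 remaining members, 8 rose in the positive fraction and 7 in input. Ifi44 held 9.11, 18.6, 24.7 and 18.1 normalised counts in Input PBS and 184, 88.2, 81.3 and 94.4 in Input LPS. Ifi44 in the positive fraction held 24.0, 48.5, 49.6 and 43.3 with PBS and 124, 64.2, 70.5, 157 and 77.5 with LPS. Ifi44, a cytoplasmic protein of little known function, was raised without overlap in both fractions, 6.33-fold in input and 2.38-fold in the positive fraction (adjusted p = 8.96e-05 and 0.00726). Trim30a encodes a TRIM protein that restrains Toll-like receptor signalling. Trim30a held 77.5, 87.7, 88.3 and 55.2 normalised counts in Input PBS and 345, 193, 203 and 240.2 in Input LPS. Trim30a in the positive fraction held 676, 522, 567 and 601 with PBS and 1412, 1289, 696, 900.1 and 1298 with LPS. LPS libraries lay above PBS libraries in both fractions, in Positive LPS by little for animal 270. The log2 fold changes of Trim30a were 1.67 ± 0.23 in input and 0.92 ± 0.20 in the positive fraction (adjusted p = 7.84e-05 and 0.00155). Ifi35, Ifi27l2a, Xaf1 and Rtp4 rose in both, with log2 fold changes of 1.30 to 2.49 in the positive fraction. Samd9l rose in both as well, but its input call (0.68, adjusted p = 0.0259) was lost without Input LPS 266 (0.61, adjusted p = 0.0815), Input LPS 507 (0.65, adjusted p = 0.0615), Input PBS 272 (0.59, adjusted p = 0.0852) or Input PBS 273 (0.54, adjusted p = 0.0945). Epsti1 rose in the positive fraction (0.59), with 0.45 in input (adjusted p = 0.158).

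**Figure D3:**
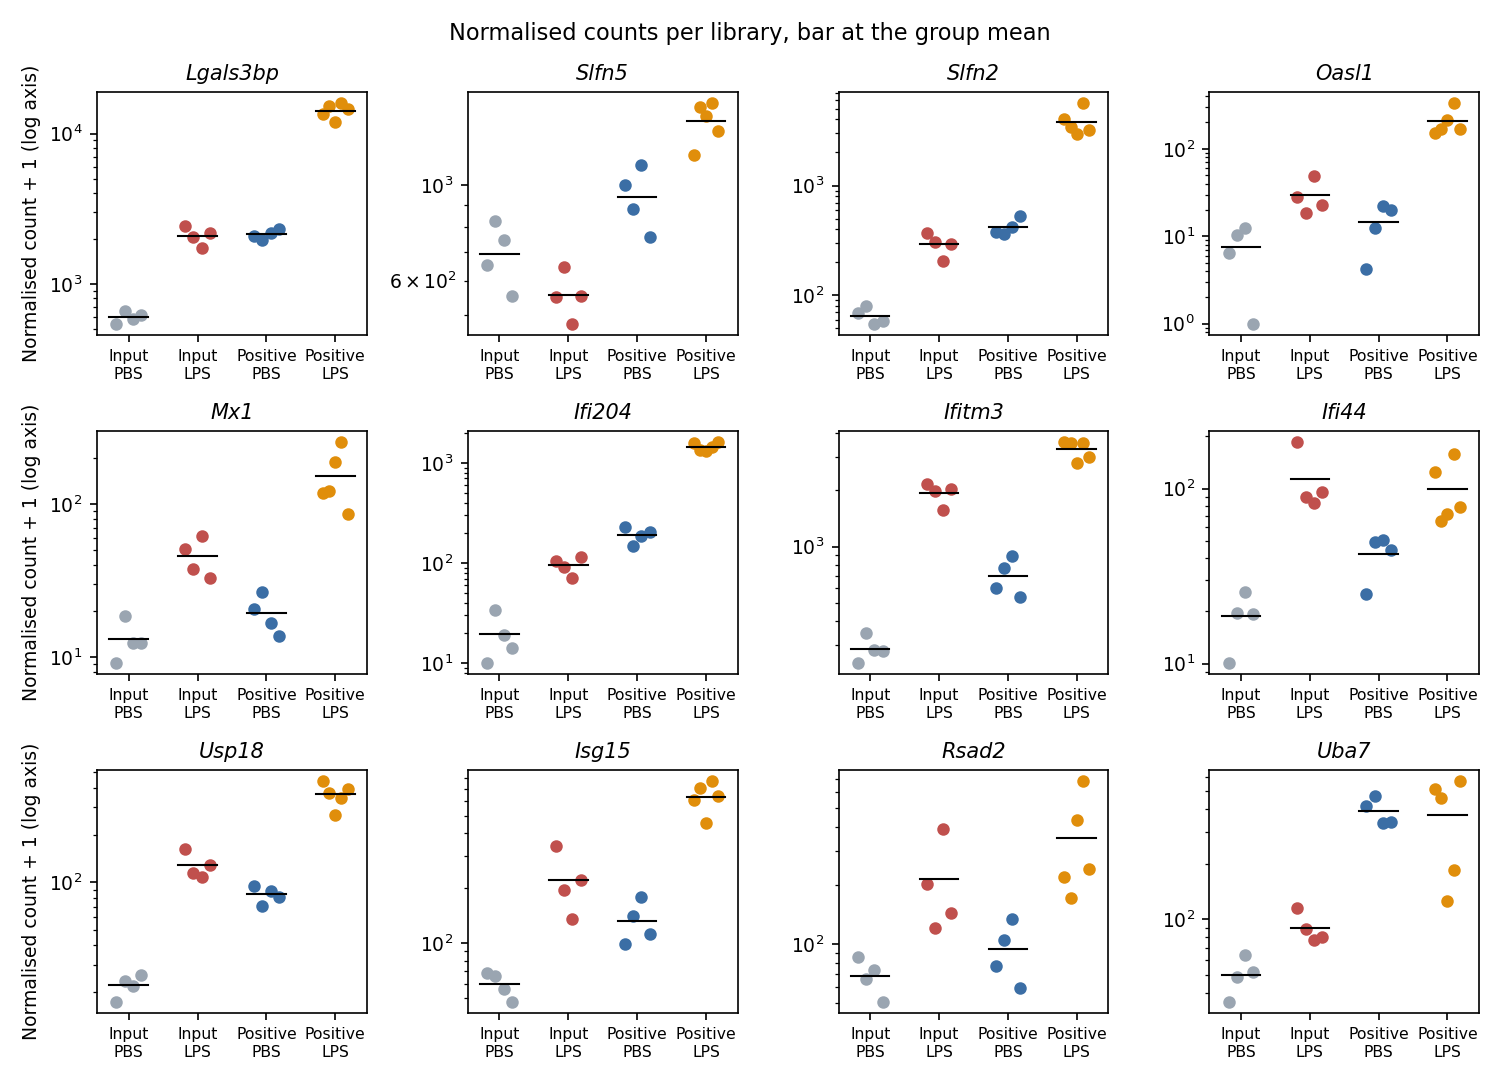
Normalised counts plus 1 (log axis) of 12 members in every library of the 4 groups, with a bar at the group mean. The Positive LPS libraries of Lgals3bp, Slfn2 and Ifi204 lie above all other libraries, whereas those of Uba7 spread from 125 to 566.

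Whether the LPS rise was larger in the positive fraction or in input was tested as the difference of the log2 fold changes, positive minus input. The difference was called for 2 members, both larger in the positive fraction (4.55%, against 5.46% of all genes), and for 0 larger in input (against 1.42% of all genes). In this fit, which does not pair libraries by animal, these shares do not stand above the background. At an unadjusted p under 0.05, the counts were 8 larger in the positive fraction and 7 larger in input, and DESeq2 called 4 and 0. The fitted difference was above 0 in 23 members and below 0 in 21, with a median of 0.03, beside -0.02 over all genes. For Lgals3bp it was 0.93 ± 0.15 (adjusted p = 0.000684), and for Slfn5 (chr11:82952102-82964850, mm10, plus strand) it was 0.90 ± 0.19 (adjusted p = 0.00684). Both kept their calls in all 26 alternatives. Slfn2 (1.00 ± 0.30, adjusted p = 0.0519) and Xaf1 (0.75 ± 0.22, adjusted p = 0.0501) lay just outside the threshold, and passed it in 10 and 13 of 26 alternatives, over which their adjusted p ranged from 0.00861 to 0.131 and from 0.00978 to 0.129. Oasl1 and Mx1 had the largest fitted differences, 1.82 ± 0.79 and 1.14 ± 0.51, at low counts with wide errors (adjusted p = 0.202 and 0.222).

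Toward input, the fitted differences were -1.41 ± 0.50 for Ifi44, -1.13 ± 0.51 for Oas2, -0.95 ± 0.50 for Uba7, -0.75 ± 0.31 for Trim30a and -0.74 ± 0.35 for Slfn8, with adjusted p-values of 0.108, 0.231, 0.316, 0.169 and 0.242. Both fractions came from the same animals. The animal was then fitted as a replicate block. Positive LPS 271 has no paired input library, so it adds nothing to the difference in this fit, which rests on 8 pairs. With the block, the number of members called rose to 6 of 44 larger in the positive fraction (against 8.90% of all genes). The parts of the pairing and of that library in the changed calls were not tested. The number called larger in input rose to 5 of 44 (against 4.03% of all genes). Both member shares then lay above those of all genes, an excess that was not tested. In this blocked fit, the members larger in the positive fraction were Lgals3bp (0.89 ± 0.11), Slfn5 (0.87 ± 0.14), Slfn2 (0.84 ± 0.19), Oas1a (0.96 ± 0.29), Sp100 (0.79 ± 0.18) and Xaf1 (0.66 ± 0.15), with adjusted p-values of 0.000172, 0.00115, 0.00861, 0.0427, 0.0119 and 0.00978. Those larger in input were Ifi44 (-1.62 ± 0.27), Parp14 (-0.68 ± 0.17), Ifitm3 (-0.53 ± 0.13), Dtx3l (-0.49 ± 0.14) and Ifit3 (-0.44 ± 0.12), with adjusted p-values of 0.00151, 0.0162, 0.0164, 0.0287 and 0.023. In the unblocked fit, without Positive LPS 270 or Positive LPS 507, 4 members were larger in the positive fraction (Slfn2 in both cases, Sp100 in the first and Xaf1 in the second were added). Among the cell type markers, the neutrophil gene S100a8 had a larger rise in the positive fraction (2.72 ± 0.65, adjusted p = 0.0141), 1 of 4 border macrophage markers had a lower LPS change there, and their part in the members' differences was not tested.

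**Figure D4:**
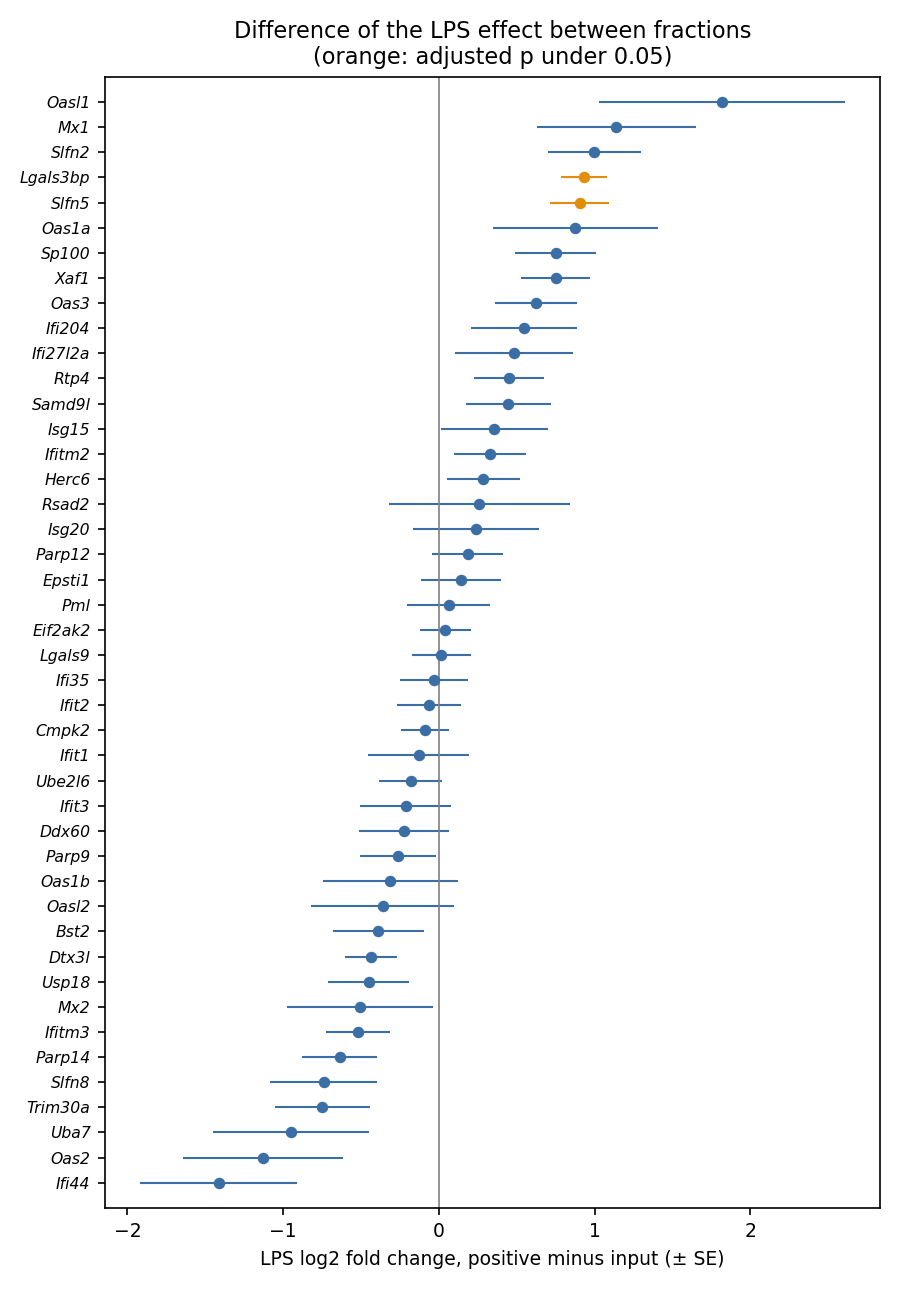
Difference of the LPS log2 fold change, positive minus input (± SE, horizontal axis), for the 44 tested members ordered by size in the fit without the block. Lgals3bp and Slfn5, in orange, are the 2 members called, and the values run from -1.41 for Ifi44 to 1.82 for Oasl1.

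The members also differed in their level between fractions without LPS. In PBS animals 27 members were higher in the positive fraction than in input (61.4%, against 21.0% of all genes) and 1, Xaf1, was lower (against 18.8% of all genes). The median log2 difference of the members was 1.00, with the median of all genes at -0.0009, and 14 were over 4-fold higher in the positive fraction (31.8%, against 4.01% of all genes). Epsti1 (3.69 ± 0.20, adjusted p = 3.03e-11), Lgals9 (3.53 ± 0.15, adjusted p = 1.01e-12) and Ifi204 (3.39 ± 0.26, adjusted p = 4.36e-09) stood highest over input, the first pair picked here after their values were seen. The 4 ADP-ribosylation members and the 3 membrane restriction proteins were all higher in the positive fraction, whereas none of the 3 Ifit, the 2 Mx and the 2 nucleotide-modifying members was called without the replicate block. With the block, which compares the fractions within animals, Ifit1 (0.39 ± 0.13, adjusted p = 0.0185) and Oas2 (0.88 ± 0.32, adjusted p = 0.0303) were also called higher in the positive fraction of PBS animals. Ifit1, Ifit3, Mx1 and Cmpk2 were higher in the positive library than in the input library of all 4 PBS animals. The pro-apoptotic XIAP-associated factor Xaf1 held 169, 232, 265 and 164 normalised counts in Input PBS and 399.5, 319.8, 414 and 336 in Input LPS. Xaf1 in the positive fraction held 145, 150.4, 179 and 146 with PBS and 461, 399.9, 503.6, 548 and 396 with LPS. The input and positive libraries of PBS animals overlapped for Xaf1, and its difference of -0.42 ± 0.17 (adjusted p = 0.0454) was lost without any of 7 single libraries, namely Input LPS 266 (-0.42, adjusted p = 0.0525), Input LPS 507 (-0.42, adjusted p = 0.0533), Input PBS 272 (-0.36, adjusted p = 0.108), Input PBS 273 (-0.28, adjusted p = 0.185), Positive PBS 268 (-0.39, adjusted p = 0.0956), Positive PBS 272 (-0.40, adjusted p = 0.0914) and Positive PBS 506 (-0.39, adjusted p = 0.096).

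In LPS animals 29 members were higher in the positive fraction (65.9%, against 27.6% of all genes), with a median of 1.32, beside -0.03 over all genes. No member was lower (0, against 25.8% of all genes), with 0 also at an unadjusted p under 0.05 and 0 by DESeq2, and 1 (Mx2, -0.62 ± 0.25, adjusted p = 0.0386) with the replicate block. The block, to which the unpaired Positive LPS 271 adds nothing, changed other calls in LPS animals. It added Oasl2 (0.62 ± 0.10, adjusted p = 8.73e-05) and Pml (0.36 ± 0.08, adjusted p = 0.00164) to the members higher in the positive fraction. It removed Isg20 (0.58 ± 0.27, adjusted p = 0.0694). The deposited log2 values, scaled over all 18 libraries, moved the median of all genes by -0.13 in the comparison of fractions in PBS animals, and calls there are relative to that centre, with 25 members higher and 1 lower by limma on those values. Ifi204 had the largest difference with LPS (3.94 ± 0.22, adjusted p = 3.52e-11). Besides Xaf1, the calls of Ifi44, Isg20, Oas2, Oasl2 and Slfn5 in PBS animals and of Isg20, Oasl2, Rsad2 and Xaf1 in LPS animals changed when 1 library was left out. The libraries of the LPS animals are shared with the LPS comparisons above.

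The genes that carry the interferon signal were read from a list of 34, written with earlier results of these data known. Of these, 31 are in the matrix and 23 passed the filter. LPS raised 8 of the 23 in input (against 7.16% of all genes) and 14 in the positive fraction (against 19.0%). No gene of the list was called lower (against 5.26% and 14.9% of all genes). Over the alternatives, 7 to 9 genes of the list were called in input and 11 to 14 in the positive fraction. The 8 interferon ligand genes in the matrix were too low to be tested, and together held at most 4.42 normalised counts in any library. Of the receptors, Ifnar1 and Ifnar2, the chains for type I interferon, rose in the positive fraction by log2 fold changes of 0.42 and 0.41, as did Ifngr2 (0.34). Their input changes of 0.10, 0.25 and -0.16 were not called (adjusted p = 0.354, 0.0712 and 0.356). Tyk2 was the 1 of 3 receptor kinases called, in the positive fraction (0.48 ± 0.19, adjusted p = 0.0467). This was just under the threshold, and its Positive PBS libraries (566.9 to 949.6 normalised counts) overlapped its Positive LPS libraries (624.1 to 1209.3). Of the 9 transcription factors, 8 rose in the positive fraction and 6 in input, Irf9, Irf1 and Irf8 among them in both. Irf7, a factor that amplifies interferon production, rose from 69.4 ± 20.6 (SD, n = 4) to 559 ± 64.6 normalised counts in input (n = 4) and from 115 ± 12.7 (n = 4) to 667 ± 69.1 in the positive fraction (n = 5). These were log2 fold changes of 3.01 ± 0.17 and 2.53 ± 0.16 (adjusted p = 3.64e-09 and 2.4e-09). Stat2 rose by 0.55 and 0.46, and Irf9 by 1.10 and 0.91, in input and the positive fraction. Among 6 inhibitors of the pathway, Socs3 and Ptpn6 rose in both fractions. The rise of Socs3, a JAK inhibitor also induced by other cytokines, was larger in the positive fraction (3.56 ± 0.22 against 2.25 ± 0.22, difference 1.31 ± 0.30, adjusted p = 0.0103). The difference was also called for Ifngr2 (0.50 ± 0.15, adjusted p = 0.0441) and for no other gene of the list. For Ifnar1 it was 0.32 ± 0.09 (adjusted p = 0.0393), which lay at the threshold of 25% and was not called.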

How the data were processed

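TRAP RNAseq was analysed in 9 mice (6 female, 3 male), each giving an input and a positive library. Strand-specific reads had been aligned to mm10 in Strand NGS by the authors, who deposited estimated counts per gene (81.6% of the nonzero values were not whole) and log2 values normalised over all 18 libraries. The columns were matched to samples by name. The deposited estimated counts were rounded, 271 Input (1252 counts) was left out, and libraries were scaled by the median of ratios over 15766 genes (size factors 0.766 to 1.32). Genes with over 20 normalised counts in every library of at least 1 group were tested (14803). A model of the 4 groups with 13 residual degrees of freedom was fitted in edgeR 4.0.16 (quasi-likelihood test, Benjamini-Hochberg adjustment over all genes tested, fold change over 1.25) under R 4.3.3. Normalised counts are counts divided by size factors, so genes are not compared with each other in level. Depth (22968939 to 35123345 counts) limits precision for members with few counts, such as Oasl1 and Mx1.

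The members and lists were chosen with earlier results of these data known. Named with values per library are the 5 members with the largest LPS change in each fraction, the 5 with the most positive and the 5 with the most negative difference between fractions, the 3 with the smallest change in each fraction, and Isg15, Rsad2, Usp18, Ifitm3 and Bst2. Other members are given by fitted values, ranges and counts, with those whose calls changed under an alternative named. Xaf1 was given per library after its values were seen. Input and positive libraries of an animal are paired by design, and in the 8 pairs the deviations from the group means correlated (r = 0.160 to 0.519). Alternatives were DESeq2 1.42.0, TMM scaling, a filter at 100 or none, all 18 libraries, only the libraries compared, sex as a covariate, leaving out the animals numbered in the 500s, the animal as a replicate block, limma 3.58.1 on the deposited log2 values, and leaving out each library. For comparisons of the fractions the block was an effect per animal in edgeR, to which the unpaired Positive LPS 271 adds nothing. For LPS against PBS within a fraction it was a correlation within animals (0.445) in limma. The fitting code was tested on simulated data. Promoters were read with Python 3.11.15 from RefSeq.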

Additional observations from a re-analysis of the deposited data

Results flagged for a closer look

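In 76 groups of 4 or 5 libraries of the 19 members named by rule, 3 had a library far from the others by Dixon's test, which chance gives in about 1 of 20 groups. Ifi44 in Input LPS was highest in animal 266, at 183.6 normalised counts against 81.3 to 94.4 in the other libraries. Slfn8 in Positive PBS was highest in animal 268, at 327.8 against 269 to 272. Bst2 in Positive LPS was lowest in animal 270, at 1658.2 against 2447 to 2688. The LPS effect differed between fractions for Lgals3bp, with a log2 difference of 0.932 (positive minus input), and for Slfn5, with 0.903, by edgeR's interaction test. Their rises were higher in the positive fraction in every one of the 26 alternatives in which the difference was fitted.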

How the results depend on the processing

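Of the 27 alternatives, those that left out 1 library gave 40 to 41 members raised in the positive fraction and 33 to 36 in input, and the others 34 to 41 and 29 to 37 (fewer members were tested at the filter of 100). The number of members with a larger rise in the positive fraction, 2, became 4 with DESeq2, TMM scaling, the filter at 100, all 18 libraries or the deposited log2 values, and 6 with the replicate block. It ran from 2 to 4 when 1 library was left out. The number with a larger rise in input, 0, became 5 with the replicate block. In PBS animals the number lower in the positive fraction, 1, became 0 without the low-count filter, with only the libraries compared and without the animals in the 500s, and was 0 to 1 when 1 library was left out. In LPS animals it was 1 instead of 0 with the replicate block. The causes of these moves were not tested. Among the members given per library by rule, uncalled LPS changes and differences changed sign as follows. The Rsad2 difference was -0.048 with the replicate block and ran from -0.13 (without Positive LPS 271) to 0.71 (without Input LPS 270) over single libraries left out. The Pml difference was -0.032 without the animals in the 500s and ran from -0.074 (without Input LPS 270) to 0.19 (without Input LPS 266), and the Pml input change from -0.020 to 0.24 (without the same libraries, in the other order). Leaving out Input PBS 273 gave the lowest Oas3 input change, -0.042, and leaving out Input PBS 506 the highest, 0.16, and the Uba7 positive change from -0.29 (without Positive LPS 507) to 0.14 (without Positive LPS 270). Without the animals in the 500s, the input calls of Oasl1, Oas2, Rsad2, Samd9l and Ube2l6 and the positive calls of Epsti1 and Ube2l6 were lost. Of the other members, the uncalled differences of Ifit1, Ifit2, Ifi35, Isg20, Eif2ak2 and Lgals9 changed sign under at least 1 alternative. So did uncalled comparisons of the fractions, for Ifit2, Mx2, Oas3 and Samd9l in PBS animals and Cmpk2, Ddx60, Ifi44, Ifit2, Ifit3, Oas1b and Oas2 in LPS animals. No called value changed sign. For LPS against PBS within a fraction, the replicate block was a limma fit with a correlation within animals, and it changed no call of a member.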

Other observations

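Among the Positive LPS libraries, that of animal 270 was lowest in 28 of the 44 tested members and highest in 0. That of animal 271 was highest in 21 and lowest in 1. Some members had both on the same side. Both lay below the other Positive LPS libraries for Oas1a, Oasl2, Uba7 and Pml, and above them for Rsad2, Oasl1, Mx1 and Ifit3. Among the Input LPS libraries, animal 266 was highest in 27 members and animal 270 lowest in 26. These counts and members were chosen after the values were seen. The members with an ISRE match in their promoter window (15 tested) had median LPS log2 fold changes of 1.65 in both input and the positive fraction, while the 19 tested members with a window and no match had 0.83 in input and 1.07 in the positive fraction, with overlapping ranges.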
